A study of Homo sapiens with 16 samples.

Results

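The human embryonic stem cell line H1, an established line, was followed over the first days of treatment with bone morphogenetic protein 4 (BMP4). The window comprised 6 of the 16 arrays of the series, chosen by their labels: the 3 arrays of cells given BMP4 at 100 ng/ml on days 1, 2 and 3, and the 3 arrays of untreated cells on days 1, 2 and 3. All cells of both arms were kept in the stem cell medium mTeSR on a Matrigel coating, and total RNA was hybridised to Illumina bead arrays, with 1 array for each arm and day. Each arm also had an array labelled day 0 and 4 arrays of later days, which entered the fit. The arrays of the later days helped to estimate the spread. The day 0 arrays, 1 per arm with a mean of its own, added nothing to it. The later days are not described here. The cells are of 1 line, and the labels name no separate cultures.

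BMP4 binds a pair of type I and type II serine kinase receptors, which phosphorylate SMAD1, SMAD5 and SMAD9. These join SMAD4 in the nucleus and switch on target genes, among them the ID genes, whose products block basic helix-loop-helix factors. The targets also include inhibitors of the pathway itself, inside the cell (SMAD6, SMAD7), at the membrane (BAMBI) and outside it (NOG). In human embryonic stem cells BMP4 is known to switch on genes of primitive streak, mesoderm and extraembryonic cells, and the WNT, Nodal and FGF pathways take part in that.

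Levels are given as log2 of the background-corrected intensity plus 16, and a probe counted as detected above a level of 5.05, the 99th percentile of the estimated background. A difference is the BMP4 level minus the untreated level on that scale, so 1 is a 2-fold change. The early effect is the mean difference over days 1 to 3, tested with limma in a fit over all 13396 genes with a detected probe, at a Benjamini-Hochberg adjusted p of 0.05. The slope difference is the change per day of the BMP4 minus untreated difference within days 1 to 3. Days stand in for replicates, so the p-values measure the spread between arrays of one arm, which includes any trend over the days and may be technical. If an arm had no array above the floor, or a mean under it, only a bound can be given, written as at least N-fold. Same-day and slope differences have no such bound and are not exact where a level lies under the floor.

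BMP4 cells differed from untreated cells in 3935 of 13396 genes (29.4%), with 2157 higher (16.1%) and 1778 lower (13.3%). The shares of 16.1% and 13.3% are the ones to set beside each list count below. A change of at least 2-fold was seen for 551 genes higher (4.11%) and 379 lower (2.83%). The BMP4 day 0 array already differed from the untreated day 0 array by at least 2-fold in 658 genes higher and 369 lower, and the labels do not say whether BMP4 had been added by then. With the day 0 difference subtracted, 141 genes were higher (1.05%) and 174 lower (1.3%). The day 0 difference rests on 1 array per arm, so subtracting it enlarges the standard error, and calls can be lost for that alone. Of the 930 genes changed at least 2-fold, 169 (18.2%) already differed at least 2-fold in the same direction at day 0, and 456 kept a 2-fold change after subtraction. Of 140 named genes with an early effect call, 88 lost it and 7 changed sign with day 0 subtracted. Day 0 values are given beside some of these results only, so a gene printed without one may also have differed at day 0. The part of the day 0 difference in a result was not tested. Arrays of the arms correlated at 0.935 to 0.963 across genes, those within untreated cells at 0.988 or more and those within BMP4 cells at 0.967 or more.

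The slope difference passed for 315 genes (2.35%), 141 rising (1.05%) and 174 falling (1.3%), with 1928 genes at an unadjusted p under 0.05. These counts equal those after day 0 subtraction by coincidence, since 15 genes are in both sets. With same-day arrays paired as a block, 239 genes rose and 336 fell. The slope test rests on the ends of the window: without the untreated day 3 array limma called 0 genes, with 822 at an unadjusted p under 0.05, without the BMP4 day 1 array 55, without the untreated day 1 array 83 and without the BMP4 day 3 array 112. Slope differences are given here where they passed with all arrays, unless stated, and none of the 65 named genes with such a call kept it without the untreated day 3 array, while 16 kept it without the BMP4 day 1 array. All 65 kept their direction without any 1 array.

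The labelled cell type was checked on its markers. LIN28A, an RNA-binding protein of pluripotent cells, stood at 13.28, 13.12 and 13.07 in BMP4 cells and at 13.32, 13.26 and 13.24 in untreated cells on days 1, 2 and 3. Of 13 tested stem cell markers, 0 rose and 3 fell: USP44, TERF1 and SOX2. POU5F1, also on the list, did not pass, and its early effect ranged from 0.04 to 0.22 over the left-out arrays. The median of the list was -0.31, after 0.25 at day 0, and -1.0 with day 0 subtracted, when 2 of the 13 passed as lower and 8 had an unadjusted p under 0.05. With same-day arrays paired as a block 5 fell. USP44, a deubiquitinase of stem cells, read 8.67, 7.84 and 7.04 in BMP4 cells and 9.70, 9.54 and 9.64 in untreated cells. DPPA4 and the surface sialomucin PODXL had falling slope differences, of -0.49 and -0.67 per day. Of 15 trophoblast and amnion markers 7 rose, of 9 primitive streak and mesoderm markers 6 and of 7 definitive endoderm markers 3, and 0 fell in each list. In untreated cells 5, 2 and 3 of these markers were never above the floor on days 1 to 3 and could hardly be called lower. Over all genes 16.1% rose and 13.3% fell. With day 0 subtracted 5, 1 and 0 markers of these lists passed as higher, in that order, and 9, 3 and 0 had an unadjusted p under 0.05 (limma). Their medians were then 1.66, 3.27 and 0.859. Of 7 fibroblast markers 1 rose and 1 fell, PDGFRB (0.95) and THY1 (-1.05), and of 6 neural ectoderm markers 0 rose and 0 fell. PDGFRB did not pass without any 1 of the 6 arrays (adjusted p up to 0.149, limma) and THY1 not without either day 3 array (up to 0.0687). Here, as throughout, fewer cells that express a gene and less of its RNA in each cell cannot be told apart.

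The ID genes, SMAD6, SMAD7 and BAMBI were high on the BMP4 day 1 array and stayed high through day 3, and none of them passed the slope test. All 3 tested ID genes rose. ID1 read 13.27, 13.06 and 12.83 in BMP4 cells on days 1, 2 and 3, and 10.46, 10.21 and 9.83 in untreated cells. Its early effect was 2.88 ± 0.17 (SE, n = 3 arrays per arm; adjusted p = 9.86e-09, limma). The arms did not overlap, and the slope difference of 0.09 per day did not pass (adjusted p = 0.824, limma). ID2 stood at 11.51, 11.60 and 11.87 in BMP4 cells, against 9.19, 9.11 and 9.40 in untreated cells, and ID3 at 13.30, 13.12 and 12.88 against 11.53, 11.50 and 11.17. At day 0 the median difference of the 3 genes was -0.55, and all 3 still passed with the day 0 difference subtracted.

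SMAD6, the inhibitory SMAD of the BMP branch, showed 9.74, 9.78 and 9.97 in BMP4 cells and 6.18, 6.23 and 6.47 in untreated cells, an early effect of 3.53 ± 0.23 (SE). SMAD7, which blocks both branches of the family, showed 8.58, 8.67 and 8.53 in BMP4 cells and 6.04, 5.87 and 5.53 in untreated cells, an early effect of 2.78. BAMBI, a receptor-like protein without a kinase, read 13.49, 13.34 and 13.61 in BMP4 cells and 10.32, 10.24 and 10.12 in untreated cells, an early effect of 3.25 ± 0.14 (SE). NOG, a secreted trap for BMP ligands, read 6.58, 6.31 and 6.39 in BMP4 cells and lay under the floor on the 3 untreated arrays, so it was at least 2.60-fold higher. In these 4 genes the 3 BMP4 arrays lie close together, and each exceeds every untreated array. The day 0 difference was 0.21 for SMAD6, 0.95 for SMAD7, 0.21 for BAMBI and 0.16 for NOG. Of the other SMADs, SMAD3, which carries the activin and Nodal signal, rose by 1.20, and the remaining 10 of 13 tested members of the SMAD list, which include SMAD1, SMAD4 and SMAD5, did not pass. With day 0 subtracted 1 of the 13 members passed as higher, and 3 had an unadjusted p under 0.05 (limma).

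**Figure D1:**
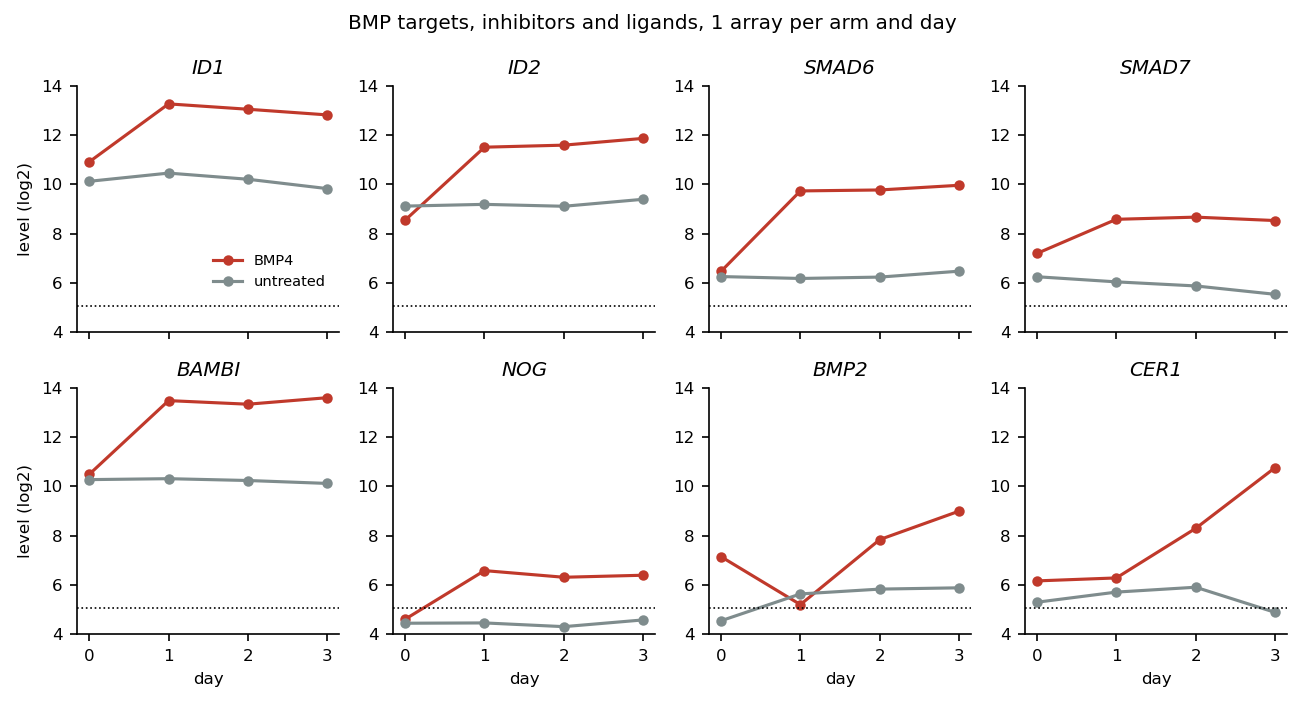
Levels (log2 of corrected intensity plus 16) on the arrays of days 0 to 3, BMP4 cells in red and untreated cells in grey, with the detection floor as a dotted line. ID1, ID2, SMAD6, SMAD7, BAMBI and NOG are level from day 1 in BMP4 cells, while BMP2 and CER1 climb from day 1 on, CER1 to 10.77 in BMP4 cells on day 3 against 4.88 in untreated cells.

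The promoters of the 4 genes with the largest early effect among the ID genes, the SMAD list and the antagonists of BMP and Nodal are shown because these genes carry the feedback result. Each is 250 bases before to 50 bases after the start of the gene (RefSeq, GRCh38.p14), with motifs in capitals. The windows are SMAD6 at chr15:66701986-66702285 on the plus strand, BAMBI at chr10:28677271-28677570 on the plus strand, CER1 at chr9:14722684-14722983 on the minus strand, ID1 at chr20:31605039-31605338 on the plus strand. The motifs searched, each its own reverse complement, were GGCGCC, a GC-rich SMAD1 and SMAD5 element, and GTCTAGAC, the palindrome bound by SMAD3 and SMAD4.
SMAD6: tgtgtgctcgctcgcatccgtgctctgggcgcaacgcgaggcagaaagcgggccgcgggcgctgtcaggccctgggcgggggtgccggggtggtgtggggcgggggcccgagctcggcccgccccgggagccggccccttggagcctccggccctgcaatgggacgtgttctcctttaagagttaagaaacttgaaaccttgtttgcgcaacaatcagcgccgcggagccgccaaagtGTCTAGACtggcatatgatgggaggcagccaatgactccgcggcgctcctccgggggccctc
BAMBI: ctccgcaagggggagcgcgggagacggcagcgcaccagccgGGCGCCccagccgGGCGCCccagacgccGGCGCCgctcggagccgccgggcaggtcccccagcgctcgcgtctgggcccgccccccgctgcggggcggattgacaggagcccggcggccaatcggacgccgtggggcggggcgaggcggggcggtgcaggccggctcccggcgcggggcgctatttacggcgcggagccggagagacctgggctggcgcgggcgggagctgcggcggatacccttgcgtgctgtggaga
CER1: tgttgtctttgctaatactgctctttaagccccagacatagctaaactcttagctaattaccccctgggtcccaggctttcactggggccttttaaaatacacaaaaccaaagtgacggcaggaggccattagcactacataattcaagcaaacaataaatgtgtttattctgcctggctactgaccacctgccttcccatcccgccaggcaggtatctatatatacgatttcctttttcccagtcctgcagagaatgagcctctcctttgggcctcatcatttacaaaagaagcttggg
ID1: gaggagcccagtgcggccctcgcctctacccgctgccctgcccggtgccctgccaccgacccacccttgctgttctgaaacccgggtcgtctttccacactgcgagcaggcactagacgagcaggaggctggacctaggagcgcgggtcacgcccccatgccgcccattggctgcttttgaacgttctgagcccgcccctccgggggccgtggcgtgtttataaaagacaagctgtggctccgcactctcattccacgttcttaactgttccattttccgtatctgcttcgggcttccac
GTCTAGAC stands once in the SMAD6 window, GGCGCC 3 times in the BAMBI window, and neither stands in the CER1 or ID1 window. Of all 27305 promoters available 18.97% hold GGCGCC and 0.201% hold GTCTAGAC. GGCGCC was present in 33.3% of the 414 promoters of genes at least 2-fold higher, in 26.7% of the 288 promoters of genes at least 2-fold lower, and in 29.7% of the 10578 promoters of tested genes. A match is a description of these letters and does not show binding.

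Ligands of the family rose as well. Of 15 tested ligand genes 5 rose and 0 fell, with a median early effect of 0.91, against 0.04 over all genes, but the median at day 0 was already 0.78. BMP4 itself climbed through 7.20, 7.72 and 8.85 in BMP4 cells and was under the floor on the untreated arrays, so it was at least 7.32-fold higher (adjusted p = 1.64e-06, limma). It passed with day 0 subtracted, at 2.91. NODAL, the ligand that patterns the primitive streak, read 9.32, 10.42 and 9.37 in BMP4 cells and 5.93, 6.27 and 5.27 in untreated cells, and its early effect of 3.88 ± 0.57 (SE) was 2.10 with day 0 subtracted, which did not pass. GDF3 rose by 2.35, LEFTY2 by 2.18 and BMP7 by 1.14, and their day 0 differences were 1.67, 1.27 and 1.22. LEFTY2, an inhibitor of Nodal, differed little on day 1, with 7.18 in BMP4 cells and 6.96 in untreated cells, and by day 3 read 10.16 and 5.74, a slope difference of 2.10 per day (adjusted p = 0.000178, limma). BMP2 followed the same order, with 5.20, 7.84 and 9.00 in BMP4 cells and 5.63, 5.83 and 5.88 in untreated cells, a slope difference of 1.78 per day, after 7.15 in BMP4 cells and 4.54 in untreated cells at day 0. Its early effect of 1.57 did not pass.

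Among 12 tested extracellular antagonists 7 rose and 0 fell. FST, which binds activin, read 9.85, 10.65 and 10.24 in BMP4 cells and 8.03, 8.19 and 7.91 in untreated cells, where the day 0 difference was 1.49. CER1, an antagonist of Nodal, BMP and WNT, read 6.28, 8.30 and 10.77 in BMP4 cells and 5.71, 5.90 and 4.88 in untreated cells, a slope difference of 2.65 per day. BMPER, which binds BMP ligands outside the cell, had a slope difference of 1.46 per day and an early effect of 1.12 that did not pass. GREM1 differed by at least 2-fold on days 1 and 2, with 7.97, 6.42 and 6.10 in BMP4 cells and 5.57, 5.34 and 5.59 in untreated cells, an early effect of 1.33 that was 0.760 without the BMP4 day 1 array and 0.25 with day 0 subtracted, which did not pass. The receptors moved less. Of 14 tested receptors and coreceptors 5 rose (ENG, BMPR2, ACVR1, ACVR2B and ACVR1B, by 0.57 to 0.96) and 2 fell, with a median of 0.36, after 0.32 at day 0. With day 0 subtracted 0 of the 14 passed as higher and 1 as lower, and 2 had an unadjusted p under 0.05 (limma). RGMA, a BMP coreceptor anchored to the membrane, fell to 8.83, 8.46 and 7.74 in BMP4 cells, against at least 9.63 in untreated cells, and ACVR2A fell by 0.56. Left-out arrays ended several of these calls: the early effect of CER1 then passed only without the BMP4 day 1 array (adjusted p up to 0.174, limma), that of ACVR2A only without the BMP4 day 3 array (up to 0.151), ENG lost its call without the untreated day 1 or BMP4 day 3 array (up to 0.0678), BMPR2 without either day 3 array (up to 0.0683), ACVR2B without the untreated day 1 array (0.0514) and ACVR1B without the untreated day 2, BMP4 day 1 or BMP4 day 3 array (up to 0.0883).

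WNT ligands and the secretion gene WLS rose, and the receptor and antagonist lists held members that rose and members that fell. WNT proteins are lipid-modified ligands carried to the surface by WLS, read by Frizzled receptors and held in check by secreted inhibitors. Of 9 tested ligands 5 rose and 0 fell. WNT5B read 7.83, 9.76 and 9.72 in BMP4 cells and was under the floor on the untreated arrays (at least 16.6-fold higher, adjusted p = 6.11e-07, limma). WNT3, the ligand that starts the primitive streak in the mouse, read 8.37, 8.81 and 8.48 in BMP4 cells and lay, on average, under the floor in untreated cells (at least 11.3-fold higher). Both were high from day 1, and both passed with day 0 subtracted. The other called ligands differed by 2-fold or more from day 2 on, by same-day differences, which have no test. The slope test called 1 ligand of the list, WNT5A. WNT5A read 5.08, 7.40 and 8.99 in BMP4 cells and 4.81, 5.41 and 4.96 in untreated cells, with a slope difference of 1.88 per day. WNT8A (at least 1.91-fold higher) and WNT3A (at least 1.92-fold higher) differed by 2-fold or more on days 2 and 3. Over the left-out arrays the early effect of WNT3A passed only without the BMP4 day 1 array (adjusted p up to 0.118, limma), and that of WNT5A did not pass without the BMP4 day 3 array (0.0668) or the untreated day 1 array. WLS climbed with them, reading 9.94, 11.48 and 11.79 in BMP4 cells and 7.17, 7.62 and 6.94 in untreated cells, an early effect of 3.83 ± 0.37 (SE) with a slope difference of 1.04 per day.

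Of 18 tested Frizzled and coreceptor genes 2 rose (11.1%) and 3 fell (16.7%), near the 16.1% and 13.3% over all genes. FZD7, a Frizzled known for its role in stem cell self-renewal, fell to 9.46, 8.84 and 9.07 in BMP4 cells, against 11.03, 10.88 and 10.97 in untreated cells, an early effect of -1.84 ± 0.17 (SE), -1.93 with day 0 subtracted. A dimmer FZD7 probe showed no such fall, at 0.07. FZD4 rose by 1.60 and ROR2, a receptor for WNT5A, by 1.21, of which 0.57 and 0.12 were left with day 0 subtracted. ROR1 fell by 0.90. Among 12 secreted antagonists and R-spondins 3 rose and 3 fell. DKK1, a WNT target that blocks the LRP coreceptors, read 7.40, 8.13 and 8.88 in BMP4 cells and 5.09, 5.71 and 5.04 in untreated cells. NOTUM, which removes the lipid from WNT, was at least 2.06-fold higher. SFRP1, a soluble Frizzled-like trap, fell to 9.87, 9.22 and 9.54 in BMP4 cells, against 11.95, 12.20 and 12.24 in untreated cells, an early effect of -2.59 ± 0.17 (SE) that still passed with day 0 subtracted, at -1.36. SHISA2, which retains Frizzled and FGF receptors in the endoplasmic reticulum, fell by 2.18. Of 11 nuclear and feedback genes 7 rose and 1 fell. Their median early effect was 1.02, the day 0 median 0.40 and the median with day 0 subtracted 0.17, when limma called 0 of the 11, with 4 at an unadjusted p under 0.05. SP5, a WNT target, read 7.41, 9.83 and 9.35 in BMP4 cells and 4.79, 5.40 and 4.46 in untreated cells, and LEF1, a WNT transcription factor, rose by 2.10. AXIN2, a widely used readout of the pathway, rose by 0.82, or 0.53 without the BMP4 day 2 array, with a day 0 difference of 0.95. TCF7L1, a repressor of WNT targets, fell to 7.19, 6.74 and 5.83 in BMP4 cells, against 7.97, 8.04 and 7.83 in untreated cells.

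**Figure D2:**
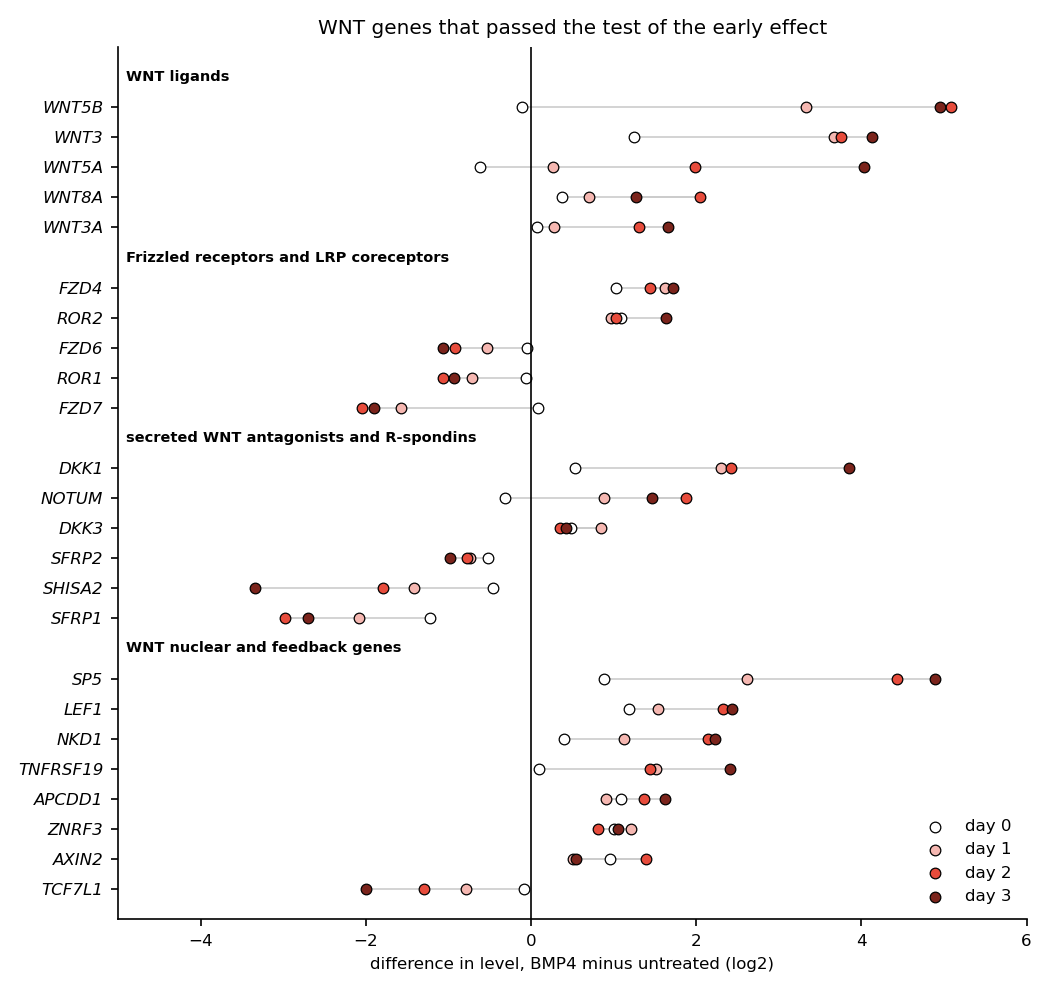
Same-day differences in level (BMP4 minus untreated, log2) of the WNT genes that passed the test of the early effect, grouped by role, with open circles for day 0 and filled circles darkening over days 1, 2 and 3. WNT5B and WNT3 lie far right from day 1, WNT5A moves right with the days, and FZD7, SFRP1 and SHISA2 lie left on all 3 days.

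Of 13 tested FGF ligands 2 rose (15.4%), FGF8 (at least 2.08-fold) and FGF9 (at least 1.97-fold), and 1 fell (7.69%), against 16.1% and 13.3% over all genes. The gene that fell was FGF11, an intracellular member, by 1.84, or -0.44 with day 0 subtracted, which did not pass. FGF2, the growth factor that sustains human stem cells, read 9.61, 8.60 and 7.84 in BMP4 cells and 9.27, 9.18 and 8.94 in untreated cells, a slope difference of -0.72 per day, and its early effect of -0.45 did not pass, while a dimmer FGF2 probe passed at -0.74. Among 16 receptors and heparan sulfate coreceptors 4 rose and 5 fell. With day 0 subtracted 0 of the 16 passed as higher and 1 as lower, and 3 had an unadjusted p under 0.05 (limma). FGFR3 peaked on day 1, with 11.54, 10.66 and 10.19 in BMP4 cells against 9.17, 9.18 and 9.60 in untreated cells, an early effect of 1.48 with a slope difference of -0.89 per day. FLRT3 and FLRT2, membrane partners of FGF receptors, rose by at least 4.78-fold and by 1.70 on the log2 scale. FGFR2 (at least 1.46-fold lower), FGFR1 (-0.88) and the glypicans GPC3 (-1.44), GPC2 (-0.71) and GPC4 (-0.47) fell, and without the BMP4 day 3 array FGFR1 (0.118) and GPC4 (0.211) lost their calls (adjusted p, limma). So did FGFR1 without the untreated day 3 array and GPC4 without each untreated array. ERBB2 fell to 10.23, 9.82 and 9.30 in BMP4 cells, against 10.85, 11.02 and 10.99 in untreated cells. LRIG1, which promotes the breakdown of ERBB receptors, fell to 7.57, 7.03 and 6.66 in BMP4 cells, against 9.62, 9.21 and 9.91 in untreated cells, an early effect of -2.50 ± 0.25 (SE). ERRFI1, an inhibitor of the EGF receptor inside the cell, rose by 1.47.

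Of 24 tested Notch genes 2 rose (8.33%) and 3 fell (12.5%), below the 16.1% and 13.3% over all genes. HEY1, a repressor that both Notch and BMP signals can induce, read 8.53, 9.42 and 9.88 in BMP4 cells and lay under the floor on average in untreated cells (at least 17.3-fold higher). HES3 was at least 3.83-fold lower, with 5.01, 4.77 and 4.82 in BMP4 cells and 6.87, 6.94 and 7.14 in untreated cells. Of 14 Eph and ephrin genes 3 rose (21.4%) and 0 fell. EFNA1 stood at 8.35, 9.40 and 9.66 in BMP4 cells and 6.91, 6.55 and 7.13 in untreated cells. In the prostaglandin list 5 of 14 rose (35.7%) and 2 fell (14.3%). The transporter SLCO2A1, which brings prostaglandin into cells, read 9.35, 10.26 and 11.23 in BMP4 cells and 5.62, 5.81 and 5.45 in untreated cells, an early effect of 4.66 ± 0.30 (SE). HPGD, the enzyme that inactivates it there, read 8.84, 9.67 and 9.91 in BMP4 cells and was under the floor on the untreated arrays (at least 21.4-fold higher). The genes of uptake and of breakdown were both higher from day 1, and both passed with day 0 subtracted. PTGES3, a cochaperone also counted as a prostaglandin synthase, fell by 1.65.

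IL6ST, the signalling subunit shared by receptors of the interleukin 6 family, rose, reading 7.96, 8.51 and 9.24 in BMP4 cells and 5.96, 6.21 and 5.73 in untreated cells. Its early effect was 2.60, and a dimmer probe gave 0.68. IL6 itself was at least 4.04-fold higher and CNTFR rose by 1.93. In all, 10 of 46 tested chemokine and interleukin genes rose (21.7%) and 2 fell (4.35%), with a median of 0.20, after 0.23 at day 0. The shares over all genes were 16.1% and 13.3%. With day 0 subtracted 0 of the 46 passed in either direction, and 7 had an unadjusted p under 0.05 (limma). CXCR4, the receptor of migrating mesoderm and endoderm cells, read 4.33, 6.87 and 8.89 in BMP4 cells and 4.64, 5.09 and 5.02 in untreated cells, a slope difference of 2.09 per day with an early effect that did not pass, and ACKR3, a scavenging receptor for the same chemokine, had a slope difference of 1.66 per day. ALDH1A2, the enzyme that makes retinoic acid in the embryo's mesoderm, read 5.52, 6.41 and 8.01 in BMP4 cells and was under the floor in untreated cells (at least 3.03-fold higher, with a dimmer probe at 0.65 that did not pass), and ALDH1A3 rose by 1.58, nearly all of it present at day 0, with 0.10 left after subtraction. The early effects of ACKR3 (0.114) and ALDH1A2 (0.137) did not pass without the BMP4 day 3 array (adjusted p, limma), nor without the BMP4 day 2 array for ACKR3, the untreated day 2 array for ALDH1A2, and the untreated day 1 or day 3 array for both. IGFBP2, a secreted carrier of insulin-like growth factors, fell by 2.60, yet its day 0 levels were 10.03 in BMP4 cells and 12.75 in untreated cells, and 0.11 was left after subtraction.

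Transcription factors of a few families rose together. The GATA and TFAP2 list, which also holds the grainyhead genes, had 8 of 10 tested members higher and 0 lower. TFAP2A, a factor of surface ectoderm and trophoblast, read 10.31, 10.74 and 10.78 in BMP4 cells and 6.41, 6.17 and 5.33 in untreated cells. GATA2, GATA3 and GATA5, higher by at least 5.43-fold, 5.19-fold and 5.26-fold in that order, lay between 7.18 and 7.71 on the BMP4 arrays of days 1 to 3 and under the floor in untreated cells. GATA4 was at least 1.13-fold higher, and GATA6 at 0.07 did not pass. GATA4 lost its call without the BMP4 day 3 array (adjusted p = 0.0915, limma). Of 51 tested genes of homeobox subfamilies other than HOX, 20 rose and 7 fell. MSX1 and MSX2, known BMP targets, were high from day 1, with MSX1 at 10.07, 11.53 and 11.60 in BMP4 cells and 5.89, 6.54 and 6.05 in untreated cells. CDX2 (at least 14.6-fold) and DLX5 (at least 11.2-fold) rose too. OTX2, a factor of the anterior embryo, fell to 6.68, 6.46 and 6.41 in BMP4 cells, against 7.86, 7.86 and 8.53 in untreated cells, and HESX1 fell by 1.79. Of the dimmer OTX2 probes 1 passed at -1.60 and 1, at -0.34, did not pass. Among 15 SOX genes 3 rose (SOX17, SOX18 and SOX9) and 4 fell (SOX2, SOX3, SOX12 and SOX21). With day 0 subtracted 0 of the 15 passed in either direction, and 3 had an unadjusted p under 0.05 (limma). SOX17 lost its call without the BMP4 day 2 (adjusted p = 0.0681, limma) or day 3 array, and SOX21 without either day 3 array (up to 0.162) or the untreated day 1 array. Of 24 forkhead genes 7 rose (29.2%) and 3 fell (12.5%), with FOXJ1 at least 2.51-fold and FOXD3 at least 2.44-fold lower.

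The order within the window was described by the same-day differences of the 930 genes changed at least 2-fold. Of the 551 higher genes, 265 differed by at least 2-fold on all 3 days, 156 on days 2 and 3, 42 on day 3 alone, 31 on days 1 and 2, 10 on day 1 alone and 4 on day 2 alone, and 43 fell in none of these classes. Of the 379 lower genes the numbers were 150, 122, 42, 28, 8 and 3, with 26 in none. Day 3 held the largest difference for 336 of the higher and 216 of the lower genes. Over all genes, differences of at least 2-fold numbered 658 higher and 369 lower at day 0, and 634 and 347 on day 1. There were 584 and 464 on day 2, and 924 and 869 on day 3. Of the genes differing on all 3 days, 74 of the 265 higher and 29 of the 150 lower already did so at day 0. A same-day difference compares 1 array with 1 array and has no test.

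Among rising genes APLNR, the apelin receptor of early mesoderm, had the largest slope difference, 3.58 ± 0.37 per day (SE, adjusted p = 5.5e-05, limma). It read 4.98, 9.19 and 11.60 in BMP4 cells and 5.21, 5.98 and 4.66 in untreated cells. MESP1, a factor of cardiac mesoderm, read 5.18, 9.11 and 10.60 in BMP4 cells and 4.53, 5.14 and 4.35 in untreated cells. SOX17, a factor of endoderm and blood vessels, stood at 4.31, 8.33 and 8.59 in BMP4 cells and at 4.41, 4.66 and 4.33 in untreated cells. On day 1 their same-day differences were -0.23, 0.65 and -0.10, and on day 2 they were 3.21, 3.97 and 3.67. HAND1, a factor of heart, amnion and trophoblast, differed from day 1 and kept growing, with 9.19, 12.80 and 13.61 in BMP4 cells and 6.09, 7.46 and 5.90 in untreated cells. ISL1 (2.42 per day), PITX1 (2.17), GRP (2.48), HOXB8 (2.20) and HOXB2 (2.15) complete the 10 largest. TBXT and EOMES, the T-box genes of the primitive streak, already stood at 9.11 and 9.18 on the BMP4 day 1 array, against 4.60 and 5.00 on the untreated one. The early effect of TBXT was 5.60. The slope differences of TBXT and EOMES did not pass, which does not show that the differences stayed level. Of the 10 rising genes APLNR, GRP, ISL1, PITX1, HOXB2 and HOXB8 lost the slope call without the untreated day 3 array alone, and CER1, HAND1, MESP1 and SOX17 without others too. The slope of SOX17 ranged from 0.30 to 4.06 per day over the left-out arrays, with the lowest value without the BMP4 day 1 array. The early effects of GRP (0.0563), MESP1 (0.0542) and APLNR (0.0932) did not pass without the BMP4 day 3 array (adjusted p, limma), that of APLNR not without the BMP4 day 2, untreated day 1 or untreated day 3 array either.

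HOX genes, which set position along the body axis in the order of their clusters, showed this late rise. Of 17 tested HOX genes 6 rose and 0 fell by the early effect, with a median of 0.552. With day 0 subtracted the median was 0.905, but 0 passed as higher and 1 as lower, with 4 at an unadjusted p under 0.05 (limma). A rising slope difference, called for 1.05% of all genes, was found for 6 of the 17: HOXB2, HOXB5, HOXB6, HOXB7, HOXB8 and HOXC6. These are not the same 6 genes, since the early effects of HOXB7 and HOXC6 did not pass. HOXB8 read 4.28, 6.07 and 8.73 in BMP4 cells and 4.28, 4.25 and 4.32 in untreated cells, HOXB2 read 4.37, 6.55 and 8.48 against 4.49, 4.81 and 4.30, and HOXB6 read 4.57, 6.78 and 7.89 against 5.05, 4.47 and 4.42. A dimmer HOXB6 probe gave an early effect of -0.22. On day 1 HOXB2, HOXB6 and HOXB8 lay at or under the floor in both arms and on day 3 they were far above it in BMP4 cells. The 5 HOXB genes called by the slope test belong to 1 cluster on chromosome 17. HOXB3 and HOXB4, of the same cluster, were not called, with early effects of 0.32 and 0.33. The early effects of HOXB2, HOXB5, HOXB6 and HOXB8 did not pass without the untreated day 3 array, at an adjusted p of 0.0621 for HOXB5 (limma), and those of HOXB2 (0.111), HOXB6 (0.0759) and HOXB8 (0.0767) not without the BMP4 day 3 array. HOXB2 and HOXB8 also needed the untreated day 1 array, HOXB2 and HOXB6 the BMP4 day 2 array, and HOXB8 the untreated day 2 array.

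**Figure D3:**
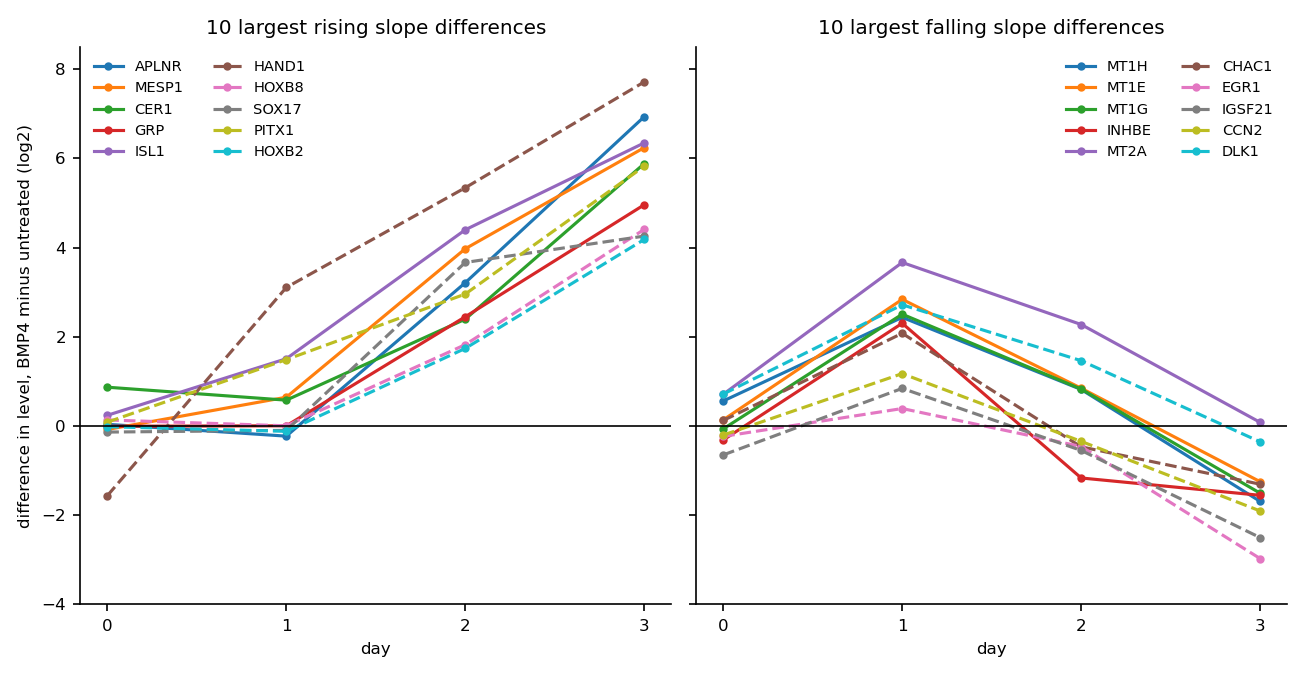
Same-day differences in level (BMP4 minus untreated, log2) on days 0 to 3 for the 10 genes with the largest rising (left) and the 10 with the largest falling (right) slope difference. APLNR rises to 6.94 above untreated cells on day 3, and the falling genes have their highest difference on day 1, such as 2.84 for MT1E.

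Other genes were high in BMP4 cells on day 1 and came down by day 3. The metallothioneins, small proteins that bind zinc and copper, did so together: 6 of 8 tested members of the list, which also holds their regulator MTF1, had a falling slope difference. Over all genes 1.3% did. MT1G read 13.78, 12.08 and 10.08 in BMP4 cells and 11.27, 11.26 and 11.59 in untreated cells, a slope difference of -2.01 per day (adjusted p = 0.00033, limma). MT1H had the largest falling slope difference, -2.06 per day. MT1E read 13.13, 11.04 and 9.22 in BMP4 cells and 10.29, 10.20 and 10.47 in untreated cells. Untreated cells were level, while BMP4 cells were above them on day 1 and below them on day 3. MT2A alone of the list also passed the test of the early effect, with 12.69, 11.22 and 9.20 in BMP4 cells and 9.02, 8.95 and 9.12 in untreated cells. The list's median difference was 2.35 on day 1, 0.83 on day 2 and -0.97 on day 3, and 0.63 at day 0, against 0.04, 0.03, 0.03 and 0.09 for all genes. The 7 metallothionein genes lie near each other on chromosome 16 and are close in sequence, so a probe may bind RNA of more than 1 of them. MT1G and MT1E kept the slope call without the BMP4 day 1 array, at -1.83 and -1.87 per day or steeper over the left-out arrays, and lost it without the untreated day 3 array. MT2A lost its early effect call without the BMP4 day 1 array (adjusted p = 0.0537, limma).

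Some targets of ATF4, the factor that answers amino acid shortage and protein stress, followed the same order. Of 20 tested members 7 rose (35.0%) and 1 fell (5.0%) by the early effect, against 16.1% and 13.3% over all genes. A falling slope difference was called for 5 of the 20, against 1.3% of all genes: CHAC1, DDIT3, CEBPB, PPP1R15A and SLC7A1. CHAC1, which degrades glutathione, read 7.72, 5.43 and 4.40 in BMP4 cells and 5.65, 5.90 and 5.71 in untreated cells. DDIT3, the stress factor CHOP, read 8.27, 5.67 and 5.85 in BMP4 cells and 5.43, 5.85 and 5.89 in untreated cells, and TRIB3, a pseudokinase it induces, 9.34, 7.53 and 7.74 against 7.15, 7.14 and 7.08. After day 1 DDIT3 was back at the untreated level, and TRIB3 remained slightly above it. ATF4 RNA itself read 12.79, 12.50 and 12.32 in BMP4 cells and 12.65, 12.94 and 12.75 in untreated cells, which did not pass at -0.25, while its dimmer probes, at -0.52 and -0.79, both passed as lower. INHBE, an activin subunit gene known as a stress target, read 10.10, 6.88 and 5.88 in BMP4 cells and 7.80, 8.06 and 7.44 in untreated cells, a slope difference of -1.93 per day. The list's median difference was 1.02 on day 1, 0.06 on day 2 and 0.01 on day 3. The amino acid transporter genes SLC7A5 and SLC3A2, whose products form 1 carrier, differ from this pattern, with SLC7A5 at 12.86, 13.33 and 12.91 in BMP4 cells and 11.66, 11.86 and 11.24 in untreated cells, and both passed with day 0 subtracted. Without the BMP4 day 1 array CHAC1, DDIT3, CEBPB, PPP1R15A, SLC7A1 and INHBE lost the slope call, with DDIT3 at -0.05 per day, and TRIB3 (0.0697) and CEBPB (0.223) lost the call of the early effect (adjusted p, limma), as both did without the untreated day 1 or day 3 array, and CEBPB without the untreated day 2 array. The early effect of CHAC1, 0.10 with all arrays, was -0.84 without the BMP4 day 1 array and passed (adjusted p = 0.0229, limma). With same-day arrays paired as a block the early effect of CEBPB did not pass either (adjusted p = 0.0587, limma).

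**Figure D4:**
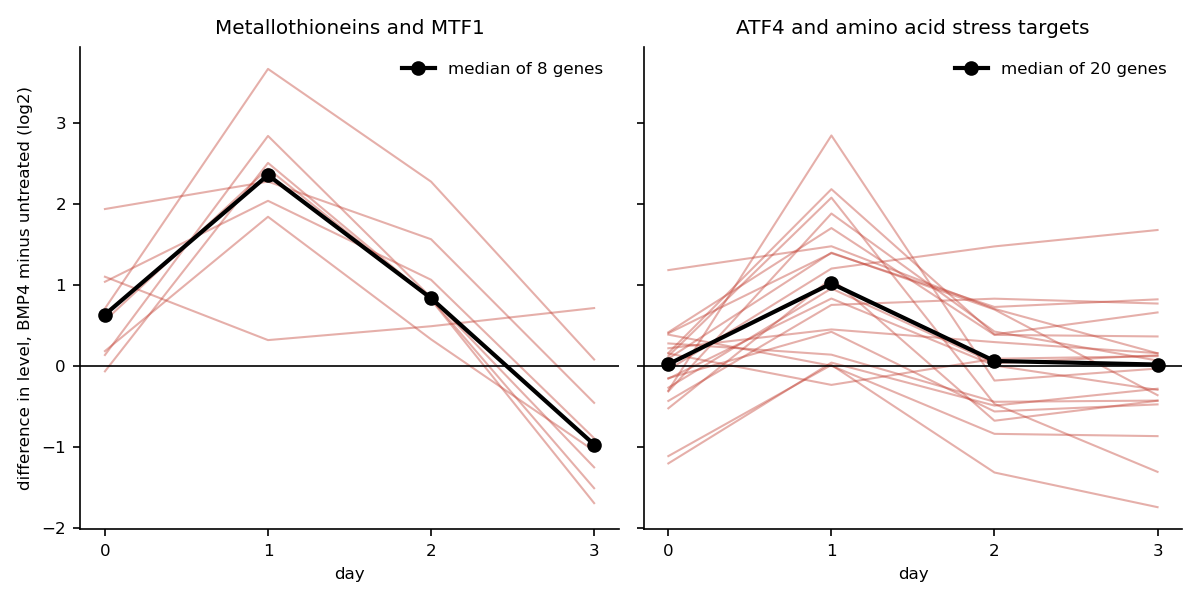
Same-day differences in level (BMP4 minus untreated, log2) on days 0 to 3 for the tested metallothionein genes with MTF1 (left) and the tested ATF4 and amino acid stress targets (right), with each gene as a thin line and the list's median as a thick one. The medians peak on day 1, at 2.35 and 1.02.

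Other genes with a falling slope difference include CCN1 and CCN2, secreted matrix proteins and targets of YAP, the immediate early genes FOS and EGR1, and the secreted peptides ADM and STC2. CCN2 read 12.24, 10.32 and 9.44 in BMP4 cells and 11.07, 10.67 and 11.35 in untreated cells, a slope difference of -1.54 per day, and EGR1 read 9.15, 7.26 and 6.77 against 8.77, 7.73 and 9.75. DLK1 (-1.54 per day), a Notch-like surface protein, IGSF21 (-1.67), LHX2 (-1.50) and HES4 (-1.18) behaved alike in these values. The day 1 level of each of these genes in BMP4 cells was measured on 1 array. Without the BMP4 day 1 array IGSF21 alone of those named here kept its slope call. The range over all left-out arrays was -2.08 to -0.997 per day for CCN2 and -3.21 to -0.15 for EGR1. EGR1 differed little between the arms on day 1, and its slope had the highest adjusted p without the untreated day 3 array (0.996, limma).

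Glycolysis genes were lower in BMP4 cells, and already so at day 0. Of 22 tested glycolysis genes 0 rose and 12 fell, with a median early effect of -0.52. The day 0 median was -0.63, the median with day 0 subtracted was 0.16, and limma then called 0 of the 22, with 4 at an unadjusted p under 0.05. PGK1, phosphoglycerate kinase, fell by 0.92, more than the list's median, with 11.90, 11.95 and 12.06 in BMP4 cells and 12.88, 12.72 and 13.06 in untreated cells, after 11.93 and 13.01 at day 0. HK2, the hexokinase, fell by 1.25. Hypoxia genes behaved in part alike: 4 of 25 rose and 9 fell. BNIP3 fell by 1.90 and stood at 0.08 with day 0 subtracted. STC1, a secreted glycoprotein that hypoxia induces, fell to 6.96, 6.97 and 7.24 in BMP4 cells, against 10.02, 10.10 and 10.24 in untreated cells, and its early effect of -3.06 was -2.75 with day 0 subtracted and still passed. CA12, a carbonic anhydrase, rose through 8.12, 9.57 and 9.83 in BMP4 cells, against 6.34, 6.41 and 6.39 in untreated cells, and BHLHE40 rose by 1.91. HIF1A, the oxygen-regulated factor itself, fell by 0.74.

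Among lists of general machinery, cytosolic ribosomal protein genes had 12 of 74 higher and 16 lower with a median of -0.05, splicing factors 11 and 17 of 119 with a median of -0.02, and histone genes 2 and 7 of 41. Lists with more genes higher include the proteasome subunits, with 14 of 41 higher and 3 lower and a median of 0.20 that was 0.29 at day 0, and the DNA replication and G1/S genes, with 11 of 34 higher and 3 lower and a median of 0.26 that was 0.23 at day 0 and -0.09 with day 0 subtracted, when limma called 0 of the 34, with 4 at an unadjusted p under 0.05. Mitosis genes had 3 of 30 higher and 5 lower. These shares stand against 16.1% and 13.3% over all genes. For lists given with 0 genes in a direction, the count there at an unadjusted p under 0.05 (limma) was 1 for neural ectoderm (higher), glycolysis (higher), Eph and ephrin (lower) and HOX genes (lower), and 0 for the others.

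Among surface and matrix genes, the integrin and collagen lists held members that rose and members that fell. Of 19 tested integrin genes 4 rose (21.1%) and 3 fell (15.8%), near the 16.1% and 13.3% over all genes. ITGA5, a fibronectin receptor chain, read 8.34, 8.19 and 8.91 in BMP4 cells and 7.09, 6.90 and 6.98 in untreated cells. ITGA6, a laminin receptor chain, was at least 2.63-fold lower. Of 33 collagen genes 7 rose (21.2%) and 2 fell (6.06%). COL9A2 read 7.50, 8.24 and 8.49 in BMP4 cells and 4.80, 5.52 and 5.37 in untreated cells, and COL9A1, whose product joins it in 1 collagen, fell to 6.53, 5.72 and 5.10 in BMP4 cells, against 7.62, 7.36 and 7.95 in untreated cells, while a dimmer COL9A1 probe gave an early effect of -0.08. Of 7 tested keratins 5 rose and 0 fell, and KRT8, the keratin of simple epithelia, climbed through 10.93, 11.83 and 12.08 in BMP4 cells, against 9.99, 9.91 and 9.78 in untreated cells.

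**Figure D5:**
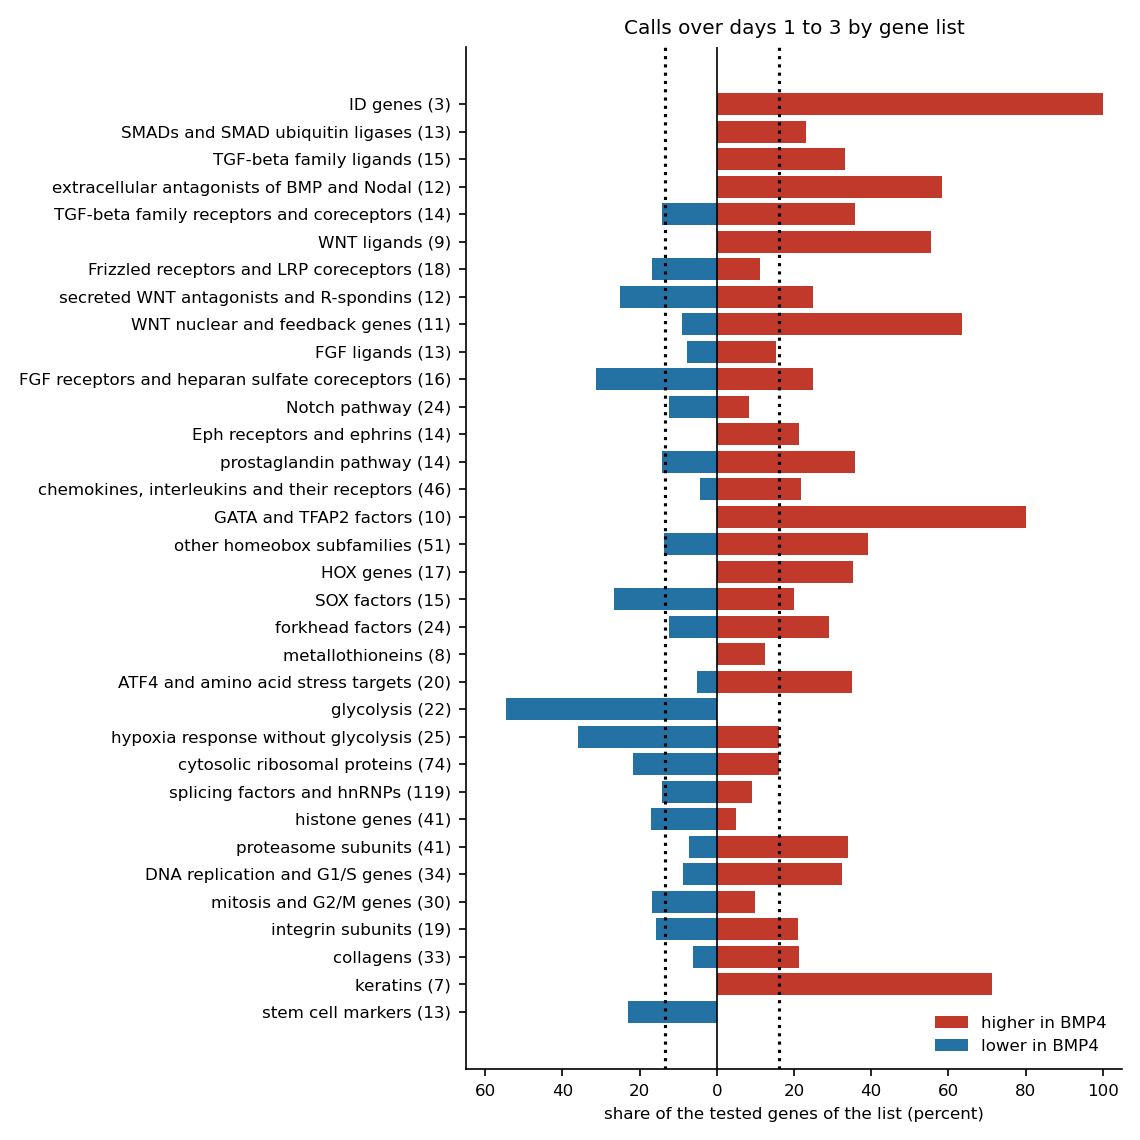
Share of the tested genes of each list called higher (red, right) and lower (blue, left) in BMP4 cells over days 1 to 3, in percent, with dotted lines at the share over all 13396 genes (16.1% and 13.3%) and the number tested beside each name. The ID, GATA and TFAP2, keratin, WNT ligand and BMP antagonist lists reach far right, and glycolysis has calls on the left only.

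Several of the largest rises were of genes outside these pathways. KRT16P2, a keratin pseudogene whose probe may bind RNA of keratin genes, was at least 44.0-fold higher. CD1D, a lipid-presenting molecule, was at least 15.9-fold higher. NTS, the precursor of neurotensin, rose by 4.15, GAD1, which makes the transmitter GABA, by 3.89, and NPPB, the natriuretic peptide BNP, by 3.44. NPPB read 10.52, 9.98 and 9.07 in BMP4 cells and 6.56, 6.66 and 6.02 in untreated cells. Among the largest falls NPTX1, a secreted pentraxin, changed by -4.73 ± 0.38 (SE), reading 6.36, 5.17 and 4.51 in BMP4 cells and 10.26, 10.48 and 9.49 in untreated cells. Dimmer NPTX1 probes gave smaller falls, of -1.63 and -1.34. The arms did not overlap for NPPB or NPTX1. Over all genes the 3 BMP4 arrays lay above the untreated ones for 3181 genes (23.7%) and below for 2578 (19.2%).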

How the data were processed

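Total RNA of H1 cells was measured on 16 Illumina bead arrays, 1 per arm and day, and the BMP4 and untreated arrays of days 1 to 3 were compared. The deposited intensities, linear in scale, came from the value table of the series. How arrays were scanned and normalized is not stated in the sources used here. Read from the values, the authors' intensities are quantile normalized: all arrays have a median of 128.3 and quantiles within 1.23e-05 on the log2 scale. A table of non-normalized signals has 32 columns whose names match no sample label, and it was not used. The planned neqc correction needs it, so the background was estimated by mirroring the intensities below their peak of 117.3, which gave an SD of 7.65 and a floor of 134.3, the 99th percentile. The normexp correction, an offset of 16 and log2 followed (limma 3.58.1, R 4.3.3).

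Of 47323 probes 30113 have 1 gene symbol, 8 several and 17202 none in the platform annotation, which can be old. Of the probes with 1 symbol 30074 matched the current gene table and 0 symbols changed. The brightest of a gene's probes stood for it, and 13396 of 20046 genes had a probe above the floor on at least 3 arrays. The filter counted all 16 arrays, so a gene high only in BMP4 cells could pass it. A gene never above the floor in untreated cells could hardly be called lower. Of 54 named genes with more than 1 detected probe, 19 had a dimmer one over 1 apart in early effect or of opposite sign. Where the results do not say so, these dimmer probes gave smaller rises. They were 1.32 for ID2, 0.91 for SMAD7, 1.21 for WLS, 1.60 for TFAP2A, 2.23 for HEY1 and 3.19 for TBXT. For SERPINB9 the value was 1.04, for CA12 1.33, for GAD1 2.4, for GRP 1.24 and for KRT16P2 4.53.

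Limma was fitted to all 16 arrays with 1 mean per arm and window, or with slopes over day for the slope difference, with an intensity trend and Benjamini-Hochberg adjustment at 0.05, two-sided. In data simulated over 13396 genes the noise was independent between arrays, and unchanged genes had no trend over days and no day 0 difference. There the early effect recovered 92% of 2-fold and 100% of 4-fold changes, with 8 false calls. The slope test recovered 56% of slopes of 1 and 99% of slopes of 2 per day, with 6 false calls. The measured arrays may depart from that setting, so these shares need not hold for them. Arrays of a shared day did not deviate together on every day (0.0145, 0.284 and -0.0365), so the main fit has no day block. Alternatives were the day as a block, day 0 subtracted, the 6 arrays alone, each array left out, other windows, backgrounds, offsets, filters, probe rules, centring and spread.

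The members and the gene lists were chosen with earlier results of these data known, so list counts are descriptions beside the share over all genes, and no list was tested. Genes are named as the 25 largest rises and 20 largest falls without overlap, the 10 largest slopes each way, the first genes of each day class, members of the signalling lists, the members of other lists with the largest effects, and the stem cell markers. The text gives part of these, and further genes of a pathway were named after their values were seen.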

Additional observations from a re-analysis of the deposited data

Results flagged for a closer look

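The named genes below are listed because the BMP4 minus untreated difference changed over days 1 to 3 by limma's test of the slope (adjusted p under 0.05 over 13396 genes, all arrays in the fit). Values are changes of that difference per day on the log2 scale, positive where it grew. Each rests on 3 days with 1 array per arm and day, and none of these calls was kept without the untreated day 3 array.

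Among transcription factors it grew for MESP1 (2.80), ISL1 (2.42), HAND1 (2.31), SOX17 (2.18), PITX1 (2.17) and PPARG (1.54). The HOX genes with a growing difference were HOXB8 (2.20), HOXB2 (2.15), HOXB5 (2.02), HOXB6 (1.97), HOXB7 (1.29) and HOXC6 (1.26). Among secreted signals, their carriers and inhibitors it grew for CER1 (2.65), GRP (2.48), LEFTY2 (2.10), WNT5A (1.88), BMP2 (1.78), BMPER (1.46), WLS (1.04) and NTS (0.97). Among receptors and transporters it grew for APLNR (3.58), CXCR4 (2.09), ACKR3 (1.66), SLCO2A1 (1.02), FLRT2 (0.96) and IL6ST (0.75). Among enzymes, protease inhibitors and structural genes it grew for ALDH1A2 (1.12), TAGLN2 (0.86), CA12 (0.83), KRT16P2 (0.81), SERPINE2 (0.75) and KRT8 (0.68). Of the 6 metallothioneins with a falling difference, those named in the report were MT1H (-2.06), MT1E (-2.05), MT1G (-2.01) and MT2A (-1.79). Among stress targets it fell for INHBE (-1.93), CHAC1 (-1.69), DDIT3 (-1.44), STC2 (-1.34), ADM (-1.28), CEBPB (-0.91), PPP1R15A (-0.88), GADD45B (-0.84) and SLC7A1 (-0.56). Among stem cell markers and SOX genes it fell for SOX21 (-1.40), SOX2 (-0.75), PODXL (-0.67), TERF1 (-0.63) and DPPA4 (-0.49). Among signalling genes it fell for CCN2 (-1.54), DLK1 (-1.54), UNC5A (-1.38), CCN1 (-1.13), FGFR3 (-0.89), GPC3 (-0.75), RGMA (-0.73), FGF2 (-0.72) and ERBB2 (-0.53). Among other genes it fell for EGR1 (-1.68), IGSF21 (-1.67), LHX2 (-1.50), HES4 (-1.18), FOS (-1.15) and IDO1 (-1.03).

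Of the probes with no gene name in the platform annotation, which no comparison of the report uses, 6392 were detected. Limma called 674 of them higher and 956 lower in BMP4 cells, or 10.5% and 15%, against 14.3% and 14.3% of the 18009 named probes. The probe with the largest rise, ILMN_1750748, read 10.05, 10.91 and 11.62 in BMP4 cells and 5.14, 5.28 and 4.74 in untreated cells, and the one with the largest fall, ILMN_3208715, read 7.54, 8.14 and 8.19 in BMP4 cells and 10.21, 10.35 and 10.74 in untreated cells. The arms did not overlap for either probe.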

How the results depend on the processing

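The early effect was called for 2157 genes higher and 1778 lower. Pairing same-day arrays as a replicate block gave 2186 and 1813, and the arrays left out in turn gave 1569 to 2085 higher and 1310 to 1863 lower. With day 0 subtracted the counts were 141 and 174, and over days 1 and 2 only, with fewer arrays, 1332 and 1029. The other alternatives for these 2 counts (6 arrays only, days 2 and 3 only, no background correction, offset 50, no filter or a filter of 6 arrays, mean of probes, housekeeping centring, no intensity trend) moved them by less than 1.5 times. Housekeeping centring shifted the median of all genes to 0.0427, and 55.3% of calls were then higher, against 54.8%. Of 140 named genes with an early effect call, 88 lost it and 7 changed sign with day 0 subtracted: ACVR1 (-0.41), AXIN2 (-0.13), BMP7 (-0.079), BNIP3 (0.0826), GPC2 (0.17), IGFBP2 (0.11) and PGK1 (0.16). The block ended 1 of the 140 calls, and left-out arrays ended 6 to 21. Over the left-out arrays the early effect of CHAC1 ranged from -0.837, without BMP4 replicate 1, to 0.822, and it changed sign on days 2 and 3 only (-0.89).

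The slope difference depended more on the processing. It was called for 141 genes rising and 174 falling, for 239 and 336 with the replicate block, and for 75 and 100 with the 6 arrays alone. Without a filter on dim probes, where more genes were tested, the counts were 75 and 92, and without the intensity trend 97 genes fell. Leaving out 1 array gave 0 to 170 rising and 0 to 204 falling genes. The block ended none of the 65 named slope calls. The same-day correlations of deviations from the arm means, 0.0145, 0.284 and -0.0365, do not show that a shared day pairs the arrays. The cause of these changes was not tested, apart from the numbers of arrays and genes given. Depth in reads does not apply: signal over background limits the dim genes, whose changes the offset pulls in, and 1 array per arm and day limits every same-day value. At a same-day threshold of 1.5-fold in place of 2-fold, 467 genes were higher and 325 lower on all 3 days, 67 and 46 on days 2 and 3, 7 and 4 on days 1 and 2, and 0 on 1 day alone in either direction.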

Other observations

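Several gene groups not described above also held changed genes, with n = 3 arrays per arm and limma's test over 13396 genes throughout. Among 38 tested genes of the serine protease and plasminogen list 9 rose (23.7%) and 3 fell (7.89%). Over all genes 16.1% rose and 13.3% fell. SERPINB9, an inhibitor of granzyme B, read 9.41, 9.97 and 9.40 in BMP4 cells and 6.61, 6.29 and 5.96 in untreated cells, an early effect of 3.30 ± 0.40 (SE) that was 1.09 with day 0 subtracted and did not pass. SERPINE2, a secreted inhibitor of thrombin, read 12.52, 13.55 and 13.98 in BMP4 cells and 11.45, 11.51 and 11.41 in untreated cells and passed with day 0 subtracted, at 2.13. Of 19 tested S100 and annexin genes 7 rose and 0 fell (1 lower at an unadjusted p under 0.05), led by ANXA1, a phospholipid-binding protein, with 10.14, 10.31 and 9.90 in BMP4 cells and 8.47, 8.79 and 7.29 in untreated cells. Of 58 actin and contractile genes 17 rose (29.3%) and 9 fell (15.5%). ACTC1, the cardiac actin, read 12.84, 13.02 and 13.29 in BMP4 cells and 11.23, 11.64 and 10.49 in untreated cells and passed with day 0 subtracted, at 3.16, TAGLN2, an actin-binding protein, had a slope difference of 0.86 per day, and MYO10, the myosin of filopodia, fell to 7.77, 7.10 and 6.40 in BMP4 cells, against 8.80, 8.60 and 8.59 in untreated cells.

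Axon guidance genes went both ways, with 8 of 38 higher (21.1%) and 6 lower (15.8%), near the 16.1% and 13.3% over all genes. SLIT2, a secreted repellent, read 8.02, 8.61 and 8.11 in BMP4 cells and 6.71, 6.86 and 6.86 in untreated cells and passed with day 0 subtracted, at 1.65, while UNC5A, a netrin receptor, fell to 7.13, 5.46 and 4.89 in BMP4 cells, against 7.28, 7.26 and 7.79 in untreated cells, a slope difference of -1.38 per day. In tryptophan breakdown 4 of 10 tested genes rose and 1 fell: AFMID, the second enzyme of the kynurenine route, read 7.44, 7.32 and 7.20 in BMP4 cells and 5.74, 5.15 and 5.32 in untreated cells, and IDO1, the first enzyme, fell to 9.41, 8.29 and 7.26 in BMP4 cells, against 9.74, 9.70 and 9.66 in untreated cells, a slope difference of -1.03 per day and an early effect of -1.38 that was -0.85 without the BMP4 day 3 array. Of 23 nuclear receptors 3 rose (13.0%) and 4 fell (17.4%), also near the shares over all genes. PPARG, a regulator of fat and trophoblast cells, read 4.80, 5.49 and 7.66 in BMP4 cells and 4.61, 4.38 and 4.39 in untreated cells and was at least 1.91-fold higher, with the change on days 2 and 3. The PPARG call was lost without the untreated day 3 array (adjusted p = 0.0532, limma), and a dimmer PPARG probe gave an early effect of 0.095. NR5A2, a receptor that acts on POU5F1 in stem cells, fell to 5.46, 6.28 and 4.63 in BMP4 cells, against 6.67, 7.05 and 6.57 in untreated cells. GADD45B, a stress sensor, read 8.54, 7.81 and 7.38 in BMP4 cells and 6.04, 6.31 and 6.56 in untreated cells, highest in BMP4 cells on day 1, with a slope difference of -0.84 per day. Genes of this section were chosen after their values were seen, and the slope differences share the dependence on single arrays given for the others.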
